A study of Homo sapiens with 6 samples.

Results

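The genes of polyamine synthesis and breakdown were examined in LNCaP cells and in LNCaP-enzaR, a derivative resistant to enzalutamide. The 10 genes, of 35554 with counts, were found by their symbols and comprised the synthesis enzymes ODC1, AMD1, SRM and SMS, the breakdown enzymes SAT1, SMOX and PAOX, and the regulators OAZ1, OAZ2 and AZIN1. LNCaP is an established, androgen-responsive human line grown from a prostate cancer metastasis, and enzalutamide is an inhibitor of the androgen receptor. The parental group is the line that LNCaP-enzaR came from. Per the study's methods, resistance was brought about by continuous exposure to enzalutamide in culture, and the resistant line was afterwards kept on a lower dose of the drug. Each group held 3 flasks, so the replicates are cultures of 1 derived line and 1 parent, and p-values measure the spread between flasks. The labels do not state whether enzalutamide was in the medium of the LNCaP-enzaR flasks at harvest, so selection and drug exposure cannot be told apart.

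Polyamines (putrescine, spermidine and spermine) are small positively charged molecules that bind nucleic acids and are needed for growth. ODC1 makes putrescine from ornithine, AMD1 supplies the aminopropyl donor from S-adenosylmethionine, and SRM and SMS use that donor to build spermidine and spermine. SAT1 acetylates spermidine and spermine so that they can be exported or oxidized by PAOX, while SMOX oxidizes spermine directly. Antizymes, made by OAZ1 and OAZ2 when polyamines are plentiful, bind ODC1 protein and send it to the proteasome, and the antizyme inhibitor AZIN1 sequesters antizyme. The prostate is known for secreting large amounts of polyamines into seminal fluid.

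Some of this control lies in sequence rather than in transcript level. The antizyme message is read in full only when the ribosome slips forward by a base at a stop codon. The stretches around that site in OAZ1 (GRCh38, chr19:2271422-2271463, plus strand) and OAZ2 (GRCh38, chr15:64691495-64691536, minus strand) are shown because the counts below cannot see this step, and they bear on what the levels of these 2 genes measure. Capitals mark the last codon of the first frame and the stop codon where the shift takes place, which both genes share.

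OAZ1 frameshift site: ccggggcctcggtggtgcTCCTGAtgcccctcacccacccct
OAZ2 frameshift site: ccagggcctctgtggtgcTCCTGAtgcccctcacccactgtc

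The 250 bases upstream of the start of ODC1 (GRCh38.p14, chr2:10448328-10448577, minus strand) and of SAT1 (GRCh38.p14, chrX:23782923-23783172, plus strand), the members that differed most between the lines in each direction, are given from RefSeq. Both strands were searched for TATAA as the core of the TATA box, for CCAAT as the core of the CAAT box and for CACGTG as that of the E-box bound by MYC and related factors. Capitals mark a TATA box match at position -32 of ODC1, counted from the start of transcription, and CAAT box matches at positions -79 (on the opposite strand) and -13 of SAT1.

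ODC1 promoter: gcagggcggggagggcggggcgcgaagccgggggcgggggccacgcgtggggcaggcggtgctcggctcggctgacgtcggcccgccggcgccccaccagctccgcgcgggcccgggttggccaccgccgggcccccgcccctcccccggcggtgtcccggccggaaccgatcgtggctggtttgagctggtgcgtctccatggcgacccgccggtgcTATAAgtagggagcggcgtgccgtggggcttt
SAT1 promoter: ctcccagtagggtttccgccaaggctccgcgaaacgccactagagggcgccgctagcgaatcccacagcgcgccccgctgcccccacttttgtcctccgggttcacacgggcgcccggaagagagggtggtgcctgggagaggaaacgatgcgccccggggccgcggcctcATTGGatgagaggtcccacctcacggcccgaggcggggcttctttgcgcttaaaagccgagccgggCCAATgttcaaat

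The TATA box letters were present in 18.9% of 35116 promoter windows of this length, the CAAT box letters in 32.0% and the E-box letters in 6.34%. Of the 7 members with a window in that table, only SRM held CACGTG in the window at its first start, at position -199. A second listed start of ODC1 held CACGTG at position -29. Counted from the first start of ODC1, that site lay downstream at base 287. A further CACGTG lay at base 321, in an annotated exon. These are matches of letters, not sites shown to be bound.

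The libraries held 77759122 to 98616465 counts, and replicates of a line correlated at 0.990 to 0.992 in log2 CPM across genes. The LNCaP-enzaR replicate 1 library stood somewhat apart from the other LNCaP-enzaR libraries, with a chi-square per degree of freedom of 31.2 and 39.1 against them, where they differed from each other by 7.33. All 8 prostate luminal markers were counted in every library, and 1 rose, 4 fell and 3 did not pass the threshold described below, with log2 fold changes from -3.08 (KLK3) to 1.16 (KRT8). Of 7 markers of leukocytes, endothelium and fibroblasts, 5 had at most 20 counts in every library. The list's summed level of 18.0 to 20.8 CPM in LNCaP and 8.24 to 9.27 CPM in LNCaP-enzaR came mainly from COL1A1 and VWF, and CD3E had at most 1 count. The share of counts from the mitochondrial genome was 6.87% ± 0.17 (SD, n = 3) in LNCaP and 15.1% ± 0.42 in LNCaP-enzaR.

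The resistant line carried much more SAT1 and less ODC1 and SMS, with a smaller increase of OAZ2. These 4 of the 10 members were past the threshold, set at an adjusted p no higher than 0.05 and a fold of 1.5 or more in edgeR's quasi-likelihood test, SAT1 and OAZ2 upward and ODC1 and SMS downward. Across all 19711 genes tested, 42.7% were past it, 23.3% higher and 19.5% lower in LNCaP-enzaR, so the count of members lay near the background and says nothing particular about them. The members' median log2 fold change was 0.02, beside 0.01 for all genes. The groups of libraries did not overlap for 5 of the 10 members, against 70.6% of all genes. Levels below are CPM, counts scaled to a common library total (1000000) with TMM factors, and fold changes are LNCaP-enzaR over LNCaP.

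**Figure D1:**
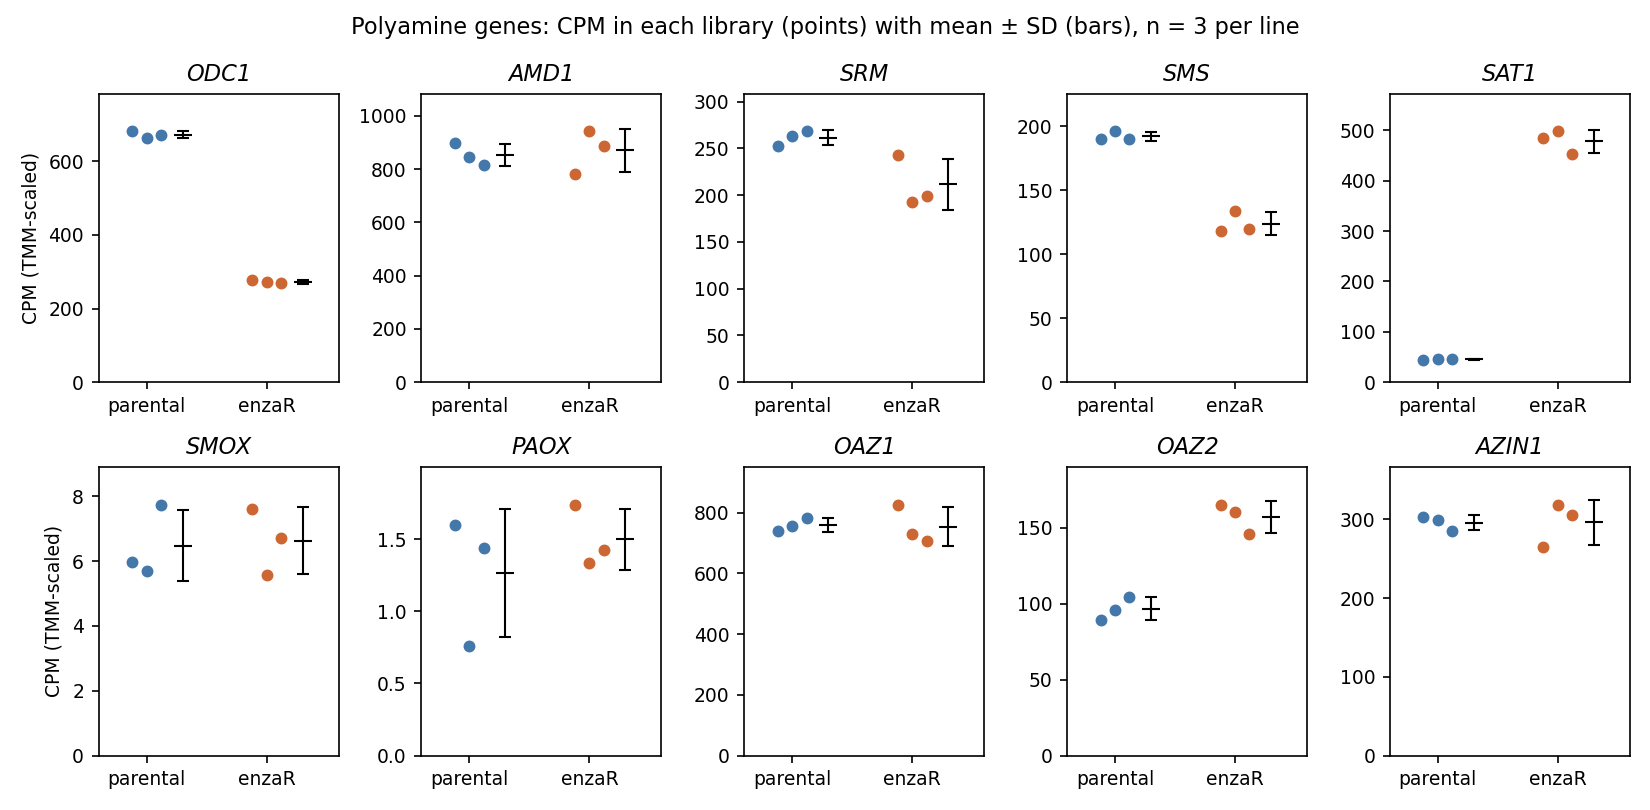
CPM (TMM-scaled, linear axes from 0) of each of the 10 polyamine genes in the 3 LNCaP (blue) and 3 LNCaP-enzaR (orange) libraries, with the mean ± SD beside the points. SAT1 stood at 43.6 to 46.5 CPM in LNCaP and 454 to 499 CPM in LNCaP-enzaR, while AMD1, SMOX, PAOX, OAZ1 and AZIN1 overlapped between the lines.

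Among the synthesis enzymes, ODC1, the first and rate-limiting step, was the gene that differed most. Its level was 682, 664 and 672 CPM in LNCaP replicates 1 to 3 and 278, 271 and 269 CPM in LNCaP-enzaR replicates 1 to 3. All LNCaP-enzaR libraries lay far below all LNCaP libraries, and the spread within a line was small, with coefficients of variation of 1.31% and 1.82%. ODC1 fell by 1.30 on the log2 scale (SE 0.049, 95% interval -1.41 to -1.20, adjusted p = 1.91e-11, edgeR), to 0.406 of the parental level. Of the genes tested, 8.87% had a log2 fold change as low or lower.

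SMS, which adds the second aminopropyl group to make spermine, had levels of 190, 196 and 190 CPM in LNCaP and 118, 134 and 120 CPM in LNCaP-enzaR. The lines did not overlap. SMS fell by 0.63 on the log2 scale (SE 0.059, adjusted p = 3.15e-07, edgeR), a fold of 0.645 that lies just past the fold limit, and under upper-quartile scaling its log2 fold change of -0.53 was short of that limit.

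SRM, which makes spermidine, stood at 253, 264 and 268 CPM in LNCaP and at 243, 193 and 199 CPM in LNCaP-enzaR. The LNCaP-enzaR replicate 1 library lay close to the parental range and the other two below it. The log2 fold change was -0.31 (SE 0.077, 95% interval -0.47 to -0.14, adjusted p = 0.00273, edgeR), which met the limit on adjusted p but not that on fold. On adjusted p alone, 5 of the 10 members were called, beside 66.3% of all genes.

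AMD1, whose product decarboxylates S-adenosylmethionine, did not follow the other synthesis enzymes. Its level was 898, 847 and 814 CPM in LNCaP and 783, 943 and 887 CPM in LNCaP-enzaR, with the LNCaP-enzaR libraries on both sides of the parental ones. The log2 fold change was 0.03 (95% interval -0.11 to 0.17, adjusted p = 0.711, edgeR), so a change beyond 1.13-fold in either direction lay outside the interval.

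Among the breakdown enzymes, SAT1, the acetyltransferase that starts polyamine catabolism, was far more abundant in the resistant line. Its level was 43.6, 45.1 and 46.5 CPM in LNCaP and 484, 499 and 454 CPM in LNCaP-enzaR. All 3 resistant libraries lay many times above all 3 parental ones. SAT1 rose by 3.41 on the log2 scale (SE 0.061, 95% interval 3.28 to 3.54, adjusted p = 1.16e-14, edgeR), which is 10.6-fold. Of the 19711 genes tested, 618 (3.14%) had a log2 fold change at least as high, and ordered by CPM SAT1 moved from place 4843 in LNCaP to place 224 in LNCaP-enzaR.

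The oxidases that act beside and after SAT1 were expressed at a low level in both lines. SMOX, spermine oxidase, stood at 5.99, 5.71 and 7.74 CPM in LNCaP and at 7.61, 5.56 and 6.71 CPM in LNCaP-enzaR. These ranges overlapped almost wholly, and the log2 fold change was 0.04 (95% interval -0.26 to 0.33, adjusted p = 0.833, edgeR). PAOX, the oxidase of acetylated polyamines, stood at 1.60, 0.759 and 1.44 CPM in LNCaP and at 1.74, 1.34 and 1.42 CPM in LNCaP-enzaR. The lines overlapped again, and the log2 fold change of PAOX was 0.24 (95% interval -0.29 to 0.78, adjusted p = 0.411, edgeR). PAOX rested on 69 to 150 counts a library, and 61.0% of its exonic bases lay in exons of other genes, so that its values are uncertain and a change of up to 1.72-fold upward lay within the interval.

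Of the regulators, OAZ2 rose and the more abundant OAZ1 did not pass the test. OAZ2 was at 89.6, 95.6 and 105 CPM in LNCaP and at 165, 160 and 146 CPM in LNCaP-enzaR. The resistant libraries were all above the parental ones. OAZ2 rose by 0.70 on the log2 scale (SE 0.069, adjusted p = 4.91e-07, edgeR), which is 1.63-fold.

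OAZ1 was at 738, 758 and 783 CPM in LNCaP and at 827, 729 and 707 CPM in LNCaP-enzaR, with the resistant libraries on both sides of the parental range. Its log2 fold change was -0.01 (95% interval -0.14 to 0.12, adjusted p = 0.888, edgeR). AZIN1, the antizyme inhibitor, was at 303, 299 and 285 CPM in LNCaP and at 264, 319 and 306 CPM in LNCaP-enzaR. The lines overlapped for AZIN1 too, with a log2 fold change of 0.00 (95% interval -0.14 to 0.15, adjusted p = 0.979, edgeR).

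**Figure D2:**
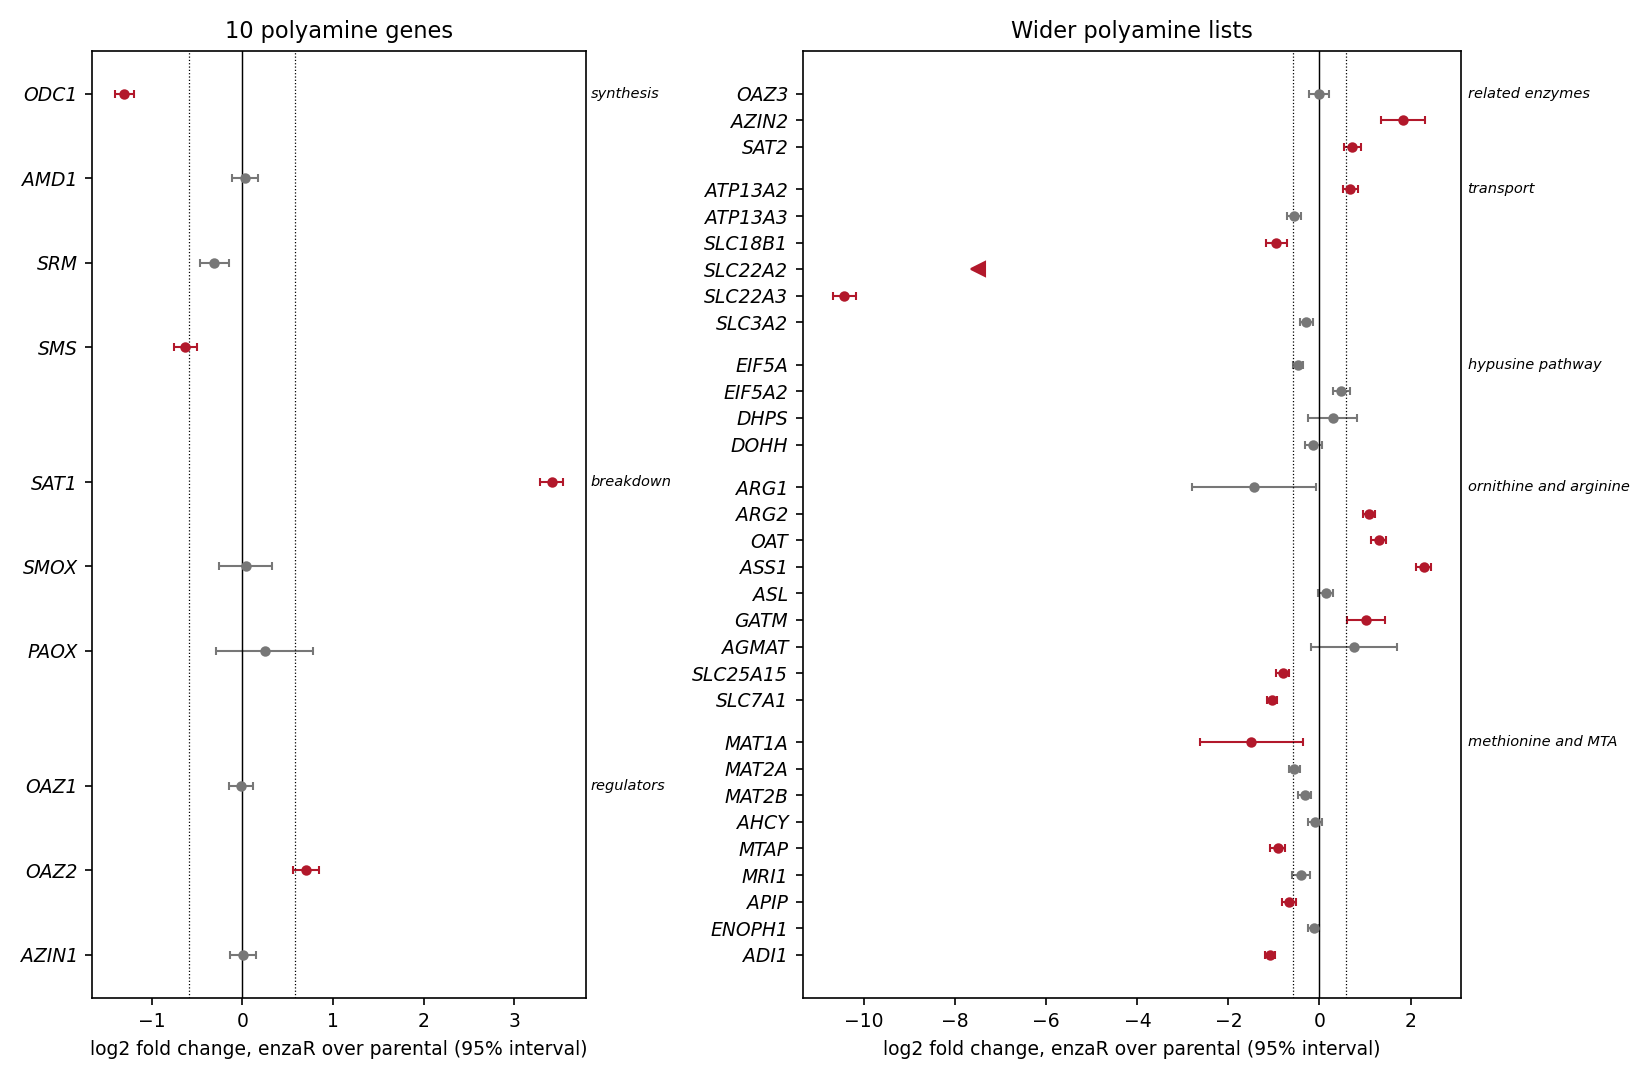
Log2 fold changes, LNCaP-enzaR over LNCaP, with 95% intervals for the 10 polyamine genes (left) and the tested genes of the wider polyamine lists (right). Red marks genes past the threshold and grey the others, dotted lines stand at a fold of 1.5 in either direction, and the left-pointing triangle of SLC22A2 is a bound, since LNCaP-enzaR held at most 3 of its counts per library. SAT1 (3.41) and ODC1 (-1.30) lay farthest from 0 among the 10 genes.

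The changes in SAT1, ODC1, SMS and OAZ2 took place beside other differences between the lines. All 6 proliferation markers fell, their summed level being 1352 to 1384 CPM in LNCaP and 405 to 432 CPM in LNCaP-enzaR, and the mitochondrial share was higher as given above. The part of proliferation in these results was not tested. With the mitochondrial genes left out before scaling, the log2 fold change of SAT1 was 3.41 and that of ODC1 -1.30. This step changes the scaling only, and the part of the mitochondrial difference in these results was not tested. In bulk RNA, fewer cells expressing a gene and less of its RNA per cell cannot be told apart.

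Pairs of members were also compared as ratios of counts within each library, which are free of library scaling. The ratios rest on the same counts as the fold changes above and are not separate support for them. SAT1 counts were 0.0639, 0.0680 and 0.0693 of ODC1 counts in the LNCaP libraries and 1.74, 1.84 and 1.69 times ODC1 counts in the LNCaP-enzaR libraries. SAT1 counts were thus below ODC1 counts in every LNCaP library and above them in every resistant library. The ratio differed by 4.71 on the log2 scale, or 26.2-fold. These ratios of counts are not corrected for gene length. The ratio of ODC1 to OAZ1 counts was 0.858 to 0.923 in LNCaP and 0.337 to 0.381 in LNCaP-enzaR, a log2 difference of -1.29. It compares transcripts of the enzyme and of its inhibitor, not their proteins.

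The ratio of OAZ2 to OAZ1 was 0.121 to 0.134 in LNCaP and 0.200 to 0.220 in LNCaP-enzaR, a log2 difference of 0.72. The ratio of SMS to SRM was 0.709 to 0.751 in LNCaP and 0.485 to 0.696 in LNCaP-enzaR, a log2 difference of -0.32 with a gap between the lines that was small beside the spread in LNCaP-enzaR. For these 4 pairs the lines did not overlap. Of all single genes tested, 70.6% did not overlap either, and the share over pairs of genes was not computed. The two-sided exact permutation test gave each of the 4 pairs p = 0.1, the smallest value 3 against 3 libraries allow. After Benjamini-Hochberg adjustment over 6 pairs it was 0.15. The ratios of AZIN1 to OAZ1 (log2 difference 0.01, exact permutation p = 1) and of SMOX to PAOX (-0.27, p = 0.5) overlapped between the lines. No pair could pass 0.05 in this design.

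**Figure D3:**
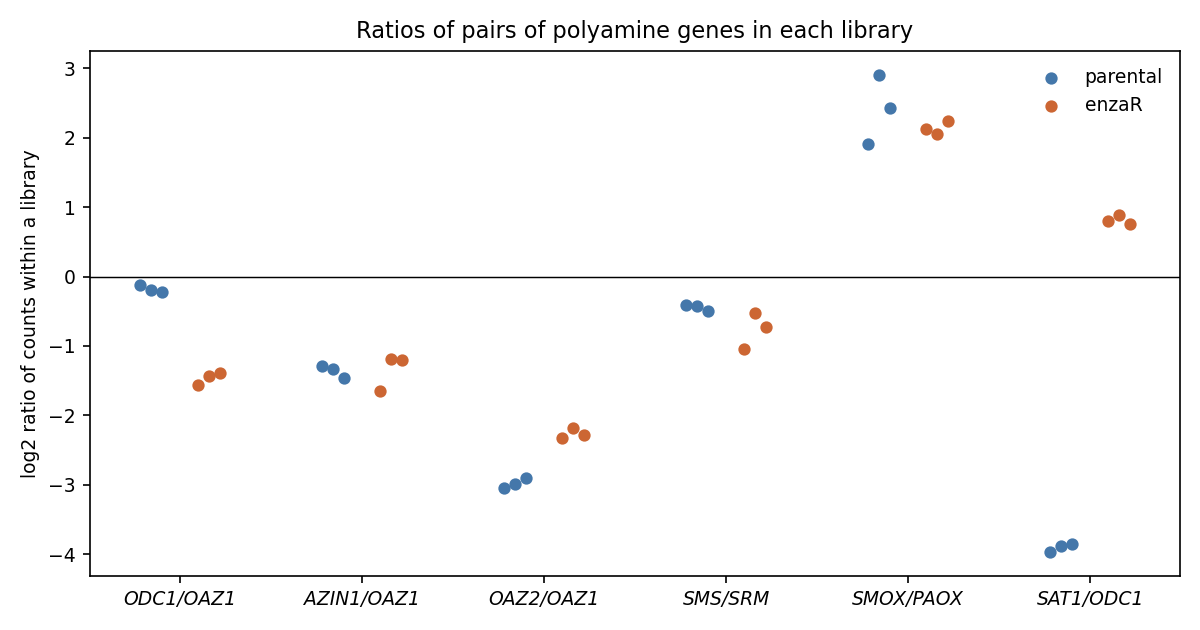
Log2 ratio of the counts of 6 pairs of polyamine genes within each library (vertical axis), with 3 LNCaP (blue) and 3 LNCaP-enzaR (orange) points per pair. The SAT1/ODC1 ratio went from between -3.97 and -3.85 in LNCaP to between 0.75 and 0.88 in LNCaP-enzaR, while AZIN1/OAZ1 and SMOX/PAOX overlapped.

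Summed over the 10 genes, the level was 3184 ± 17.3 CPM (SD, n = 3) in LNCaP and 3174 ± 79.5 CPM in LNCaP-enzaR, so the difference in the sum was smaller than the spread between libraries. Its composition differed. SAT1 made up 1.42% ± 0.054 of the sum in LNCaP and 15.1% ± 0.36 in LNCaP-enzaR. ODC1 made up 21.1% ± 0.18 and 8.60% ± 0.24. AMD1 and OAZ1 were the most counted members in both lines, at 26.8% and 23.9% of the sum in LNCaP and 27.4% and 23.8% in LNCaP-enzaR. These shares are of counts and are not corrected for gene length.

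**Figure D4:**
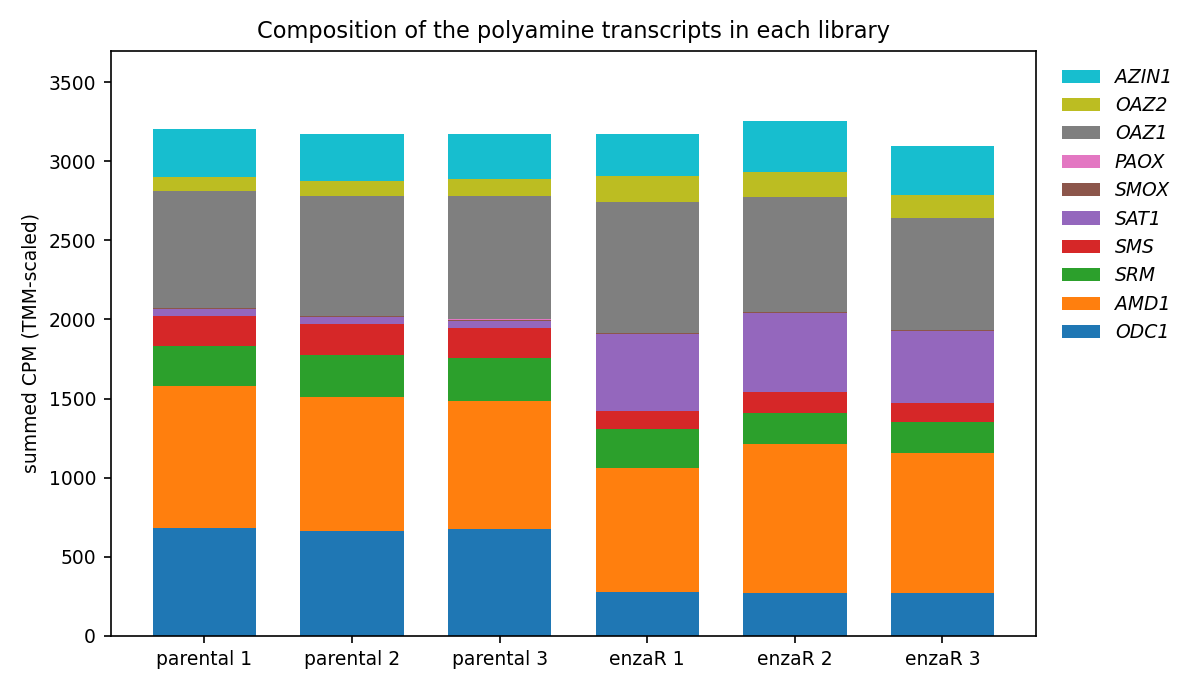
Summed CPM (TMM-scaled, axis from 0) of the 10 polyamine genes in each library, stacked by gene. The height of the bars was similar in the lines, while the SAT1 segment was 1.36% to 1.47% of a bar in LNCaP and 14.7% to 15.3% in LNCaP-enzaR.

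Levels can be compared between genes only per length. Per kilobase of all annotated exons, OAZ1 was highest in LNCaP at 221 ± 6.54 CPM (SD, n = 3), followed by ODC1 (203 ± 2.67), SRM (138 ± 4.29), SMS (90.2 ± 1.70), AMD1 (83.7 ± 4.14), AZIN1 (48.3 ± 1.52), SAT1 (18.2 ± 0.60), OAZ2 (12.6 ± 0.99), SMOX (2.20 ± 0.37) and PAOX (0.562 ± 0.20). No neighbours in that order overlapped between libraries. In LNCaP-enzaR the order was OAZ1 (219 ± 18.6), SAT1 (193 ± 9.21), SRM (112 ± 14.6), AMD1 (85.5 ± 7.94), ODC1 (82.5 ± 1.5), SMS (58.2 ± 4.08), AZIN1 (48.4 ± 4.63), OAZ2 (20.5 ± 1.33), SMOX (2.25 ± 0.35) and PAOX (0.666 ± 0.094). Only AMD1 and ODC1 overlapped there.

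SAT1 thus stood in place 7 of the 10 members in LNCaP and in place 2 in LNCaP-enzaR, and ODC1 in places 2 and 5. The length used mattered for some neighbours. Per kilobase of the longest coding transcript, SAT1 was in place 8 in LNCaP, below OAZ2, and AMD1 was above SMS. In LNCaP-enzaR, by that length, OAZ2 passed SMS and AZIN1, with overlap between OAZ2 and SMS and between SMS and AZIN1.

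**Figure D5:**
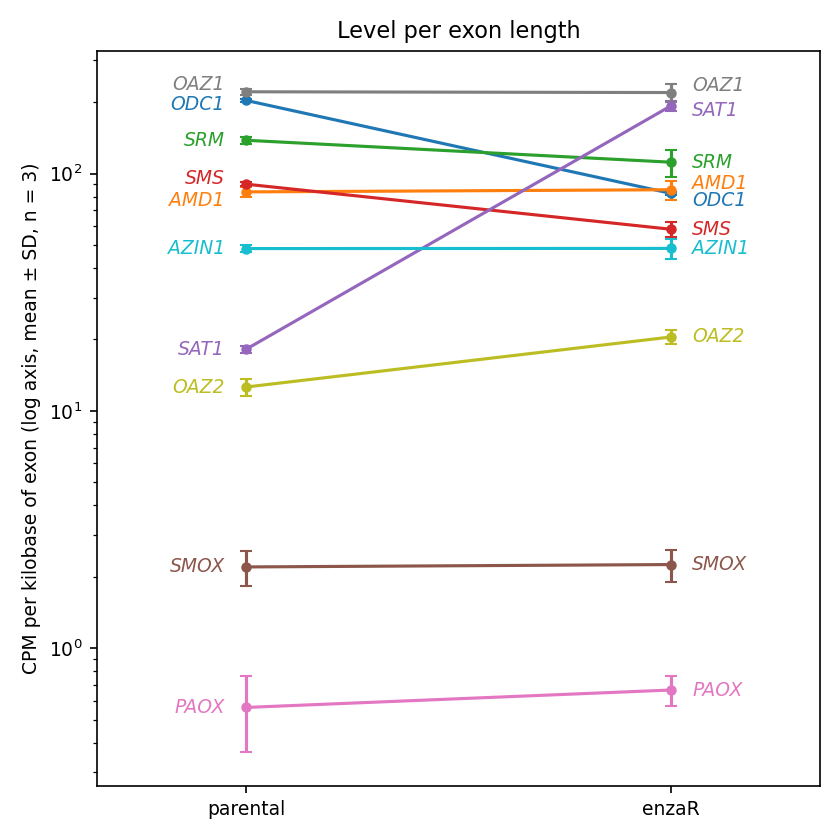
Mean CPM per kilobase of annotated exon (log axis, error bars are SD, n = 3 libraries) of each polyamine gene in LNCaP and LNCaP-enzaR, with a line joining both values of a gene. SAT1 went from 18.2 to 193 and ODC1 from 203 to 82.5, both crossing SRM and AMD1 in opposite directions, while OAZ1 stood at 221 and 219.

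The genes around the core pathway moved in both directions. Of 34 further genes in lists for related enzymes, transport, hypusine formation, ornithine and arginine supply, and methionine salvage, 31 were tested and 16 were past the threshold, 7 higher and 9 lower in LNCaP-enzaR, with a median log2 fold change of -0.29 beside 0.01 for all genes. Of all genes tested, 42.7% were past it.

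Among related enzymes, 2 of 3 tested genes were higher and none lower, beside 23.3% higher and 19.5% lower of all genes. AZIN2, a second antizyme inhibitor, was at 0.421, 0.704 and 0.471 CPM in LNCaP and at 1.83, 1.95 and 1.90 CPM in LNCaP-enzaR, a rise of 1.83 on the log2 scale (adjusted p = 5.48e-06, edgeR) from a low level. SAT2, an acetyltransferase related to SAT1, rose by 0.72 (adjusted p = 4.51e-06, edgeR). OAZ3 had a log2 fold change of -0.01, and SATL1, with at most 16 counts, was not tested.

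Of 6 tested transport genes, 1 rose and 3 fell, beside 23.3% higher and 19.5% lower of all genes. ATP13A2, the lysosomal polyamine exporter, rose by 0.68 on the log2 scale (adjusted p = 2.09e-06, edgeR), and SLC18B1, a vesicular polyamine transporter, fell by 0.95 (adjusted p = 1.58e-06, edgeR). ATP13A3, which takes part in polyamine uptake, had a log2 fold change of -0.55, just short of the fold limit, which it passed with library totals in place of TMM or without LNCaP-enzaR replicate 2. The log2 fold change of SLC3A2 was -0.29. ATP13A4 had at most 1 count and was not tested.

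The other transport genes that fell were SLC22A2 and SLC22A3, organic cation transporters which carry polyamines among many other substrates. SLC22A3 was at 209, 202 and 188 CPM in LNCaP and at 0.139, 0.181 and 0.111 CPM in LNCaP-enzaR. SLC22A2 had 518, 532 and 499 counts in the LNCaP libraries and 0, 0 and 3 in the LNCaP-enzaR libraries, so it was at least 179.8-fold lower, measured against a floor of 3 counts per library. In the resistant line SLC22A2 was thus at or below that floor, while SLC22A3 was low but counted in all 3 libraries, with 12, 16 and 11 counts.

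Genes of the ornithine and arginine list gave 4 higher and 2 lower of 9 tested, ornithine being the substrate of ODC1. Over all genes, 23.3% were higher and 19.5% lower. ASS1, argininosuccinate synthase, was at 54.0, 57.7 and 60.0 CPM in LNCaP and at 311, 259 and 269 CPM in LNCaP-enzaR, a rise of 2.29 on the log2 scale (adjusted p = 3.91e-12, edgeR). ARG2, the mitochondrial arginase that releases ornithine, rose by 1.08 (adjusted p = 1.54e-09, edgeR), though 39.6% of its exonic bases are shared with other genes. OAT, which turns ornithine toward glutamate and proline, rose by 1.30 (adjusted p = 1.35e-09, edgeR). GATM, whose reaction yields ornithine on the way to creatine, rose by 1.02 (adjusted p = 0.000344, edgeR) at 59 to 187 counts. Both transporters on the list fell, SLC7A1, which imports arginine, by 1.04 (adjusted p = 2.19e-10, edgeR) and SLC25A15, which carries ornithine across the mitochondrial membrane, by 0.81 (adjusted p = 6.75e-08, edgeR). The log2 fold changes of ASL (0.14), ARG1 (-1.43, at 3 to 13 counts) and AGMAT (0.75, at 12 to 28 counts) did not pass, though ARG1 did without LNCaP-enzaR replicate 2.

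Methylthioadenosine is the by-product of SRM and SMS and is returned to methionine by a salvage pathway. Of 9 genes tested for methionine use and salvage, 4 fell and none rose, with a median log2 fold change of -0.55. Over all genes tested, 42.7% were past the threshold, 19.5% lower and 23.3% higher, with a median of 0.01. MTAP, which cleaves methylthioadenosine, was at 71.1, 64.5 and 64.6 CPM in LNCaP and at 31.4, 38.3 and 36.0 CPM in LNCaP-enzaR, and fell by 0.92 on the log2 scale (adjusted p = 8.47e-08, edgeR). ADI1 and APIP, later enzymes of the salvage pathway, fell by 1.09 (adjusted p = 3.2e-10, edgeR) and by 0.67 (adjusted p = 9.19e-07, edgeR). The call of APIP was lost under upper-quartile scaling. MAT1A, an S-adenosylmethionine synthetase of liver, fell by 1.49 (adjusted p = 0.0217, edgeR) on 5 to 48 counts, and lost its call without LNCaP replicate 3 or without LNCaP-enzaR replicate 3. MAT2A, the synthetase of most other tissues, had a log2 fold change of -0.55, just short of the fold limit, which it passed with library totals in place of TMM or without LNCaP replicate 3. MAT2B, AHCY, MRI1 and ENOPH1 had values between -0.40 and -0.09.

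Hypusine, a modified lysine made from spermidine, occurs in the translation factor eIF5A. By edgeR, 0 of the 4 genes of this branch passed the threshold, beside 42.7% of all genes, and 0 by DESeq2, while 2 had an unadjusted p under 0.05. EIF5A was at 536, 557 and 556 CPM in LNCaP and at 415, 390 and 382 CPM in LNCaP-enzaR, a log2 fold change of -0.47 (adjusted p = 1.77e-06, edgeR) that missed the limit on fold only. EIF5A2 had a log2 fold change of 0.48 (adjusted p = 0.000218, edgeR), also short of the fold limit. DOHH had a log2 fold change of -0.14, and DHPS, with 42.2% of its exonic bases in other genes and 58 to 118 counts, of 0.29.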

How the data were processed

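RNA from 3 flasks of LNCaP and 3 of LNCaP-enzaR was sequenced as polyadenylated, paired-end libraries. Per the study's methods, the authors trimmed reads with Cutadapt, aligned them to GRCh38 with STAR and ran featureCounts to obtain reads per gene. Values in the deposited table are these raw counts, without normalization. Strand setting and treatment of reads that map to several genes are not given in the sources used here, so genes sharing exons are uncertain. Groups and replicate numbers came from the sample titles.

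The comparison was fitted in edgeR 4.0.16 (R 4.3.3) with filterByExpr (19711 of 35554 genes, 99.96% of counts), TMM, robust quasi-likelihood F-test without covariates, and Benjamini-Hochberg adjustment over all genes tested. All 10 members passed the filter on low counts. Named genes were all members and the genes of the wider polyamine lists, and marker lists are given by counts and ranges. The members and lists were chosen with earlier results of these data known. Levels per length used exon lengths of GENCODE v44, in which the members' coordinates equalled those in the table. Promoters came from RefSeq, whose table held 7 of the 10 members. The genes OTC and COL1A2 were not analysed here, and 1 further gene, which is in none of the lists, is not reported here. Ratios were compared by exact permutation. The script was tested on simulated data. Alternatives were RLE, library totals and upper-quartile scaling, DESeq2 1.42.0, other filters and fold limits, a replicate block and leaving out each library. The libraries held 77759122 to 98616465 counts, and 3 counts corresponded to 0.0302 to 0.0382 CPM.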

Additional observations from a re-analysis of the deposited data

How the results depend on the processing

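The calls of ODC1, SAT1 and OAZ2 held under every scaling, filter and tool tried and without each library in turn, with log2 fold changes of -1.34 to -1.20, 3.37 to 3.51 and 0.64 to 0.80. Among these alternatives, SMS was lost only under upper-quartile scaling (-0.53), which left 3 members past the threshold, shifted the median of all genes by 0.10 and raised the share of higher calls from 54.5% to 60.9%. With a fold limit of 2, 2 members (ODC1 and SAT1), 10 genes of the wider lists and 5561 of all genes passed. With no fold limit, 5 members, 23 genes of the wider lists and 13074 of all genes passed. Without each library in turn, 4 members, 15 to 18 genes of the wider lists and 8372 to 8517 of all genes passed.

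Members near 0 changed sign without gaining a call. AMD1 was at -0.0029 with library totals, OAZ1 at 0.090 under upper-quartile scaling, 0.011 when every library had to hold 10 counts and 0.011 among protein-coding genes, and AZIN1 at -0.031 with library totals. Without each library in turn, AMD1 ranged from -0.028 to 0.109, SRM from -0.41 to -0.24, SMS from -0.69 to -0.59, SMOX from -0.066 to 0.177, PAOX from -0.026 to 0.451, OAZ1 from -0.075 to 0.039 and AZIN1 from -0.051 to 0.085. The cause of these sign changes and of the loss of SMS was not tested.

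The replicate numbers did not pair the libraries, since deviations of same-numbered libraries correlated at -0.065 to -0.00041. With the replicate number as a block, the 4 calls among members held, and AZIN1 was at -0.0018. Depth limits PAOX, MAT1A, ARG1 and AGMAT, whose counts were low.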

Other observations

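Near ODC1, the lncRNA ODC1-DT starts 362 bases from the start of ODC1 and runs the other way. It was named after its values were seen. It had 464, 490 and 377 counts in the LNCaP libraries and 801, 754 and 811 in the LNCaP-enzaR libraries, and rose by 0.77 on the log2 scale (SE 0.098, adjusted p = 7.36e-06, edgeR), while ODC1 fell by 1.30. Whether counting used strand is not stated, but ODC1 shares no exonic bases with other genes in the annotation.

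SMS and SAT1 lie on the same arm of the X chromosome, 1788335 bases apart, and moved in opposite directions. Between them, 5 genes were tested, of which 1 was lower past the threshold and none higher, beside 42.7% of all genes past it. Their log2 fold changes ran from -5.01 to 0.82, with a median of -0.57.

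The LNCaP-enzaR replicate 1 library was the highest or the lowest of its group for 9 of the 10 members, and LNCaP replicate 1 likewise for 9 of 10. The other libraries were so for 4 to 7 members. With 3 libraries in a group, such counts are high for any library, and the share over all genes was not computed. For SRM the LNCaP-enzaR replicate 1 library stood at 243 CPM against 193 and 199 CPM in the others. Without it, the log2 fold change of SRM was -0.41, still within the limit on fold. The processed pseudogenes AMD1P1, SRMP2 and SRMP3 had at most 4 counts in any library.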
